A study of Mus musculus with 14 samples.

Results

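Mouse embryonic stem cells of the E14 line keep their undifferentiated state through a small circuit of transcription factors, and the chromatin around 10 of its genes is described here by the regions listed as differing between control cells and cells in which protein synthesis was inhibited. The genes are Pou5f1, Sox2, Nanog, Esrrb, Klf4, Klf5, Prdm14, Zfp42, Dppa2 and Myc. Accessibility was measured by ATAC-seq, which tags exposed DNA with a transposase that carries adapters for sequencing, in 4 control libraries and 4 libraries of cells given cycloheximide, a blocker of ribosomal elongation. The control cells received DMSO and the treated cells cycloheximide at 1 µg/ml, both for 3 hours, in medium with serum and the cytokine LIF, and no other genotype or treatment is named in the labels. E14 is a single established cell line, and nothing in the labels says whether the 4 libraries of a group came from separate cultures. The other 6 libraries of the series, for the histone mark H4K16ac and its inputs, were not analysed here.

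What the authors deposited is a list of 734 regions gained and a list of 454 regions lost after cycloheximide, with positions and no height, fold or value for a library. A region was assigned to a gene when its centre lay inside the gene's span or within 100 kb of it. By this rule 11 of the 1188 listed regions belonged to the 10 genes, of which 10 were lost and 1 was gained. The genes were chosen by earlier results of these same lists, in which lost regions had been seen near several of them. Their counts are therefore a description and carry no test. Read depth, the magnitude of any change and the spread between replicates are unknown, so that a region counts as listed or not listed.

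Oct4 (the product of Pou5f1) and Sox2 bind DNA side by side at a composite site, an octamer joined to a SOX element, and with Nanog and Esrrb they occupy enhancers of many stem cell genes, their own included. Klf4 and Klf5 are zinc finger factors that act beside this core, Prdm14 represses signals that lead out of the naive state, and Zfp42, also called Rex1, is a widely used marker of it. Dppa2 pairs with Dppa4 on chromatin, and Myc drives growth and proliferation. Several of these genes are controlled by enhancers that lie many kilobases away, which is why a neighbourhood and not the promoter alone was examined.

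Among the promoters that could be read, the composite site was found in that of Nanog, and the octamer alone in those of Zfp42 and Sox2. RefSeq promoter windows of build GRCm38.p6, from 250 bases before the start site to 50 after it, were present in the sequence table for 6 of the 10 genes, with 9 windows in all (Pou5f1, Sox2, Nanog, Esrrb, Klf4 and Zfp42). The 3 stretches upstream of the start site are shown because they hold the octamer core ATGCAAA on either strand, marked in capitals, and in Nanog the SOX core CATTGT beside it, in reverse orientation and also in capitals. All are printed 5′ to 3′ on the strand of the gene. They are chr6:122707364-122707477 (plus strand) for Nanog, chr8:43307138-43307244 (minus strand) for Zfp42 and chr3:34649846-34649952 (plus strand) for Sox2.
Nanog: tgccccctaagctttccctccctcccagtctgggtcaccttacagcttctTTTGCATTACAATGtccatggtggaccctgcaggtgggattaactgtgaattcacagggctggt
Zfp42: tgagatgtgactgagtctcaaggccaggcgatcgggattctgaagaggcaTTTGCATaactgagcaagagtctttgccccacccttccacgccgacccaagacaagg
Sox2: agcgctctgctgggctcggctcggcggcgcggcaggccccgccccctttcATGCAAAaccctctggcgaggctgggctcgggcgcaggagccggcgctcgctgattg

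The marked bases begin 75 bases before the first annotated start site in Nanog, 185 bases before it in Zfp42 and 99 bases before it in Sox2. The octamer core was found in 4.63% of 32817 promoter windows of the table, and in 4 of the 9 windows of the 6 genes. The 4 windows belong to these 3 genes, with Nanog counted by 2 overlapping windows that hold the same site. An octamer core with a SOX core (CATTGT or CTTTGT) directly before it, or with 1 base between, was found in 5 windows (0.0152%), 2 of which are the overlapping Nanog windows. Taken alone and on both strands, the SOX core CATTGT stood in windows of Nanog, Esrrb and Pou5f1 (4 of the 9 windows), against 12.6% of all windows, and CTTTGT in the Sox2 window, against 18.7%. Among the other motifs searched on both strands, the KLF box CCACCC stood in windows of Nanog, Zfp42, Esrrb and Pou5f1, against 31.5% of all windows. The E-box CACGTG stood in the Klf4 window, against 7.15% of all windows, and the STAT site TTCCNNGAA in a window of Esrrb, against 4.81%. The ESRRB element AAGGTCA and the AP-1 site TGANTCA were in none of the 9 windows, and in 4.72% and 7.81% of all windows, respectively. These are matches of letters in a window and not measured binding.

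No listed region, lost or gained, overlapped any of the 9 promoter windows. Over the whole lists such overlap was also uncommon, with 6 lost regions (1.32%) and 31 gained regions (4.22%) on a promoter window of the table. Among the regions near these 6 genes, the one closest to a promoter window of its gene was that of Pou5f1, with a gap of 465 bp.

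Of the 10 genes, 7 had at least 1 lost region in the neighbourhood and 1 had a gained region. The 7 were Myc with 3 regions, Zfp42 with 2, and Pou5f1, Nanog, Klf5, Prdm14 and Dppa2 with 1 each. Klf4 had the gained region, and no gene had regions of both lists. Sox2 and Esrrb had none. Over all 21887 protein-coding genes of the annotation, 3.74% had a lost region within the same distance, 5.18% a gained region and 8.71% a region of either list, against which 8 of the 10 had either. At least 2 lost regions were found near 0.324% of protein-coding genes, among them Zfp42 and Myc, and at least 3 near 0.0685%, among them Myc. Measured by length, the 10 neighbourhoods cover 2.23 Mb and held 4.47 lost and 0.447 gained regions per Mb, where the annotated chromosomes held 0.168 lost and 0.272 gained regions per Mb. As the genes were picked with these lists in view, nothing is read from the gap between the shares.

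**Figure D1:**
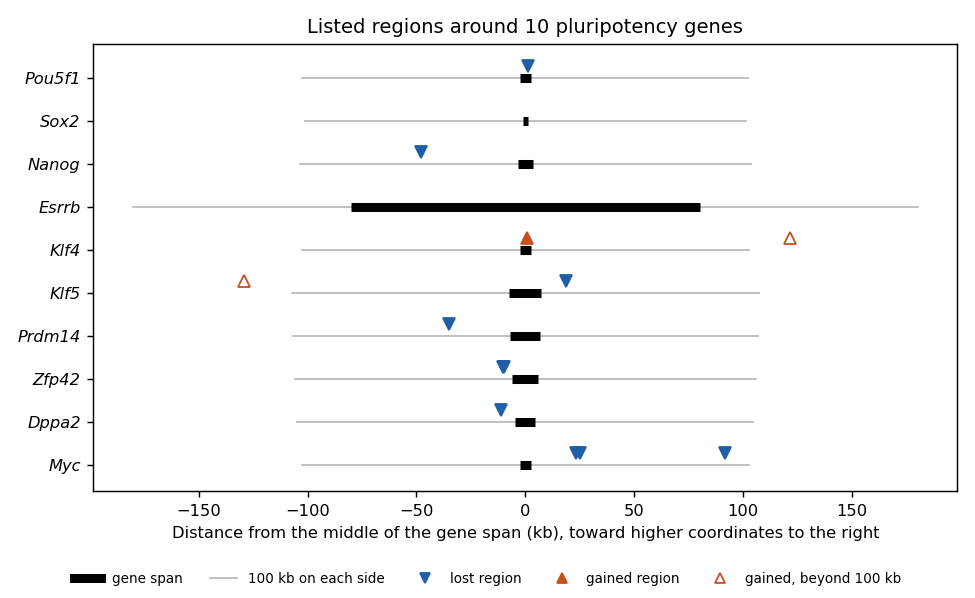
Map of each gene's neighbourhood, with the gene span in black, 100 kb on each side in grey, lost regions as blue triangles pointing down and gained regions as orange triangles pointing up; the horizontal axis is the distance in kb from the middle of the gene, and open triangles lie beyond the window. The 2 Zfp42 regions fall on the same point at this scale, Sox2 and Esrrb have no mark, and only Klf4 carries a filled gained mark.

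Pou5f1, which encodes Oct4, had its lost region inside the gene. In the authors' deposited table of lost regions it runs over chr17:35509321-35509810, a width of 490 bp. The gene spans chr17:35506032-35510777 on the plus strand, so that the centre of the region lies 3533.5 bp past the first annotated start and 1211.5 bp before the gene's end. The known proximal and distal enhancers of Pou5f1 both lie upstream of the gene, and this region matches neither of them. A second promoter window of Pou5f1 in the table lies within the gene, and the region begins 465 bp beyond it. The annotation used gives gene spans and no exons, so the region is called intragenic only. The centre of a lost region lay inside 0.804% of protein-coding genes. The neighbourhood is gene-dense, with 9 protein-coding genes within 100 kb of the region's centre, Pou5f1 included, and Tcf19 next at 3164.5 bp. The annotation also lists 7 pseudogenes that carry a name or synonym of Pou5f1, and whether reads were shared among these copies was not tested.

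The region lost near Nanog, the homeobox factor, lay upstream. The authors' deposited table places it at chr6:122662613-122663397, 785 bp wide, with its centre 44.5 kb before the start of Nanog (chr6:122707489-122714633, plus strand). It is wider than 89.6% of lost regions. An enhancer cluster upstream of Nanog, between that gene and Dppa3, is known in mouse stem cells, and the region falls in this interval. No enhancer annotation was among the files, so the comparison with known elements, here and for the other genes, rests on position and textbook knowledge and was not computed. Dppa3, a germ cell and naive state gene, is the nearest protein-coding gene at 32.7 kb, closer than Nanog, and 6 protein-coding genes lie within 100 kb of the centre. The region's target gene is not given by the data. The nearest gained region was 479.9 kb from Nanog, also on the upstream side.

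Zfp42 had a pair of lost regions a short way beyond its end. The authors' deposited table lists chr8:43290498-43290637, 140 bp wide, and chr8:43290993-43291260, 268 bp wide, with 355 bp between them. Zfp42 spans chr8:43295067-43307009 on the minus strand, which puts both downstream, with centres 4.50 and 3.94 kb from the end of the gene and 16.4 and 15.9 kb from its start. These are 2 of the 3 narrowest of the 10 lost regions, and the narrower one exceeds 0.661% of the lost list in width. The next protein-coding gene, Triml2, lay 96.7 kb or more from either centre. No known enhancer is matched to the pair here.

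Dppa2 and Dppa4 share a lost region. It lies at chr16:48303489-48304048 in the authors' deposited table and is 560 bp wide. Its centre is 6.51 kb from Dppa2 (chr16:48310274-48319513) and 9.48 kb from Dppa4, in the interval between these partner genes and inside neither. They are the only protein-coding genes within 100 kb of it. The nearest gained region to Dppa2 was 288 kb away.

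The Krüppel-like factors appeared on opposite lists. Klf5 (chr14:99298691-99313412) had a lost region at chr14:99324281-99325211 in the authors' deposited table, 931 bp wide and wider than 94.9% of the lost list, with its centre 11.3 kb past the higher-coordinate end of the gene. Klf4 (chr4:55527137-55532475, minus strand) had a gained region at chr4:55530242-55530630 in the authors' deposited table of gained regions, 389 bp wide, inside the gene and 2039 bp from its start site. A gained region's centre lay inside 0.832% of protein-coding genes. The width was close to the gained median of 355.5 bp. Known stem cell enhancers of Klf4 lie downstream of the gene, and no region of either list lay on that side within 100 kb. The nearest lost region to Klf4 was 14094 kb away, the longest such distance among the 10 genes.

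Both Klf genes also had a gained region just outside the window, and these are the nearest excluded regions. That of Klf4 lay 118.9 kb upstream and was 915 bp wide. That of Klf5 lay 122.0 kb from the gene, was 542 bp wide and had its centre inside the neighbouring gene Pibf1. The most distant region inside the window was the outer one of Myc, at 89.1 kb.

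Prdm14, a repressor that guards the naive state, had a lost region at chr1:13084782-13085444 in the authors' deposited table. It is 663 bp wide, and its centre lies 28.3 kb from the lower-coordinate end of the gene (chr1:13113428-13127163), outside annotated genes. Ncoa2, a nuclear receptor coactivator gene, lies on the other side of Prdm14, with 54.0 kb between its span and the centre of the region. Prdm14 was the nearest protein-coding gene.

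Myc had the most lost regions, all on its higher-coordinate side, the side of the long non-coding gene Pvt1. In the authors' deposited table they are chr15:62010570-62011229 (660 bp), chr15:62012594-62012855 (262 bp) and chr15:62078987-62079964 (978 bp). Their centres lie 20.5, 22.4 and 89.1 kb from Myc (chr15:61985341-61990361). The inner pair is separated by 1364 bp and sits between Myc and Pvt1, and the outer one lies inside Pvt1 (chr15:62037986-62260215), a locus known to hold enhancers of Myc in several tissues. The outer region is the widest of the 10 and wider than 95.6% of the lost list. Myc stands alone among protein-coding genes here, with A1bg next at 1089.6 kb from the first region. Myc accounts for 30.0% of the lost regions near the 10 genes.

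Sox2 and Esrrb, of the core circuit, had no listed region. The nearest lost region to Sox2 (chr3:34649995-34652461) was 12542 kb away and the nearest gained region 4637 kb away, both on the upstream side. Of all protein-coding genes, 90.1% had a lost region as near or nearer and 79.0% a gained one. The known distal control region of Sox2 lies far downstream, about at the edge of the window or beyond it, and widening the window to 200 kb added no region for Sox2. For Esrrb (chr12:86361117-86521628), whose span of 160512 bp is the longest of the 10, the nearest lost region was 4097 kb and the nearest gained region 3572 kb away. Esrrb thus ranked in the farther part of the annotation on both lists, with 65.2% of protein-coding genes as near to a lost region and 70.8% as near to a gained one. A gene without a listed region may still have changed below the authors' threshold, which is not given in the sources used here.

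**Figure D2:**
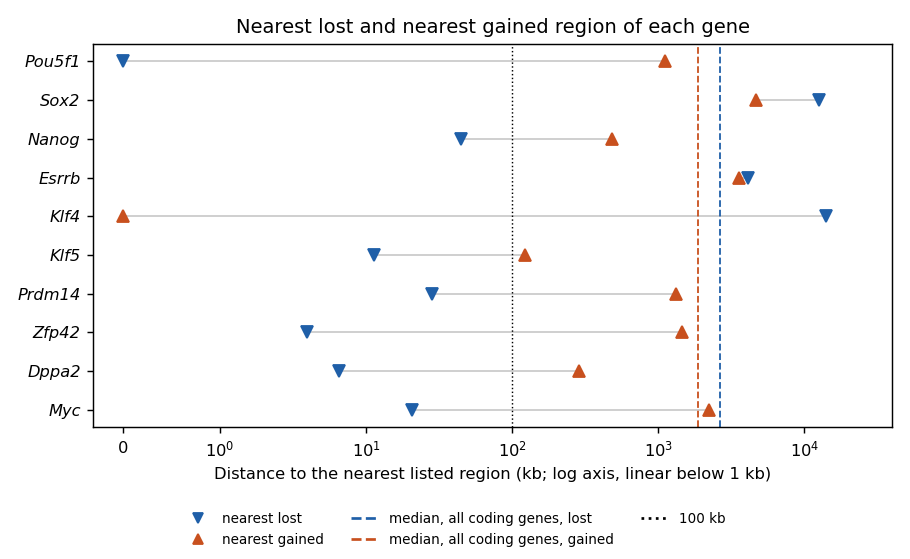
Distance in kb from each gene to its nearest lost region (blue, pointing down) and nearest gained region (orange, pointing up), on a log axis that is linear below 1 kb. The genes were picked with the lists of regions in view. Dashed lines give the medians over all 21887 protein-coding genes and the dotted line 100 kb; for 7 genes the lost mark lies left of the dotted line and the gained mark right of it, while Klf4 shows the reverse order and Sox2 and Esrrb have both marks beyond the dashed lines.

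Across the 10 genes the median distance to the nearest lost region was 24.4 kb, where the median over protein-coding genes was 2647 kb. To the nearest gained region the medians were 1219 kb and 1879 kb. The genes were picked with lost regions near several of them in view. Short distances to lost regions therefore follow in part from that choice, and nothing is read from these contrasts. For the 7 genes with lost regions, the nearest lost region lay between 0 and 44.5 kb away and the nearest gained region between 122.0 kb (Klf5) and 2214 kb (Myc). After Klf5, the shortest of these distances to a gained region were those of Dppa2 at 288 kb and Nanog at 479.9 kb.

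The 10 lost regions differed widely in size. Their widths ran from 140 bp at Zfp42 to 978 bp at Myc, with a median of 610 bp, where the whole lost list had a median of 440 bp and quartiles of 322.5 and 595.5 bp. The list median was exceeded by 7 of the 10, and the other 3 were both Zfp42 regions and the narrowest Myc region. Each of these 3 had another lost region within 1364 bp, as did the inner Myc region of 660 bp, which was wider than 80.8% of the lost list. Only the Pou5f1 region and the outer Myc region had their centre inside an annotated gene. The other 8 lay outside genes, against 48.0% of the lost list. For 9 of the 10 the member was the nearest protein-coding gene, the exception being the region nearest to Dppa3. That count follows in part from the rule, which takes regions for their closeness to a member.

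**Figure D3:**
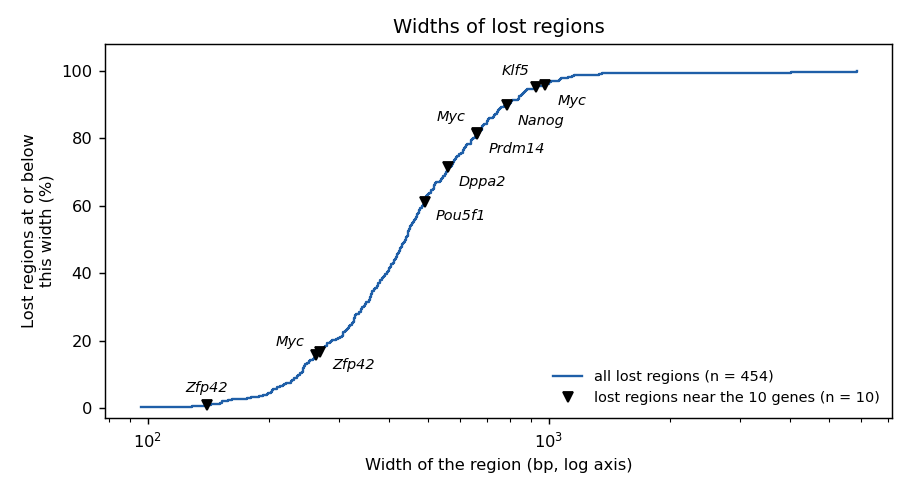
Cumulative share of all 454 lost regions (line, percent) by width in bp on a log axis, with the 10 regions near the described genes as triangles. The 3 triangles at the lower left belong to Zfp42 and Myc, at 140 to 268 bp, and the other 7 lie above the list's median of 440 bp.

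Each deposited list consists of 2 blocks sorted by position, the first with 102 and the second with 352 lost regions. What separates the blocks is not stated in the sources used here. Of the 10 lost regions, 3 came from the first block (those of Prdm14, and the second region in both the Zfp42 and the inner Myc pair) and 7 from the second, and the gained Klf4 region came from the first. In the pairs at Zfp42 and Myc, the neighbouring regions thus came from different blocks.

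Further genes of the same pathway were examined by the same rule. Of 21 other pluripotency genes, 4 had a lost region within 100 kb (19.0%) and 0 a gained one, beside background shares of 3.74% and 5.18%. Dppa3 and Dppa4 were counted through the regions already described for Nanog and Dppa2, which leaves 2 of the 21 with a lost region of their own. The regions near Mycn, a Myc family gene, and Gbx2, a homeobox gene of the naive network, were separate. In the authors' deposited table the Mycn region is chr12:12909759-12910158, 400 bp wide, with its centre 26.1 kb from the gene, and the Gbx2 region is chr1:89870691-89870970, 280 bp wide and 57.1 kb away. Both lie downstream of their genes. The remaining 17, among them Tfcp2l1, Klf2, Sall4, Nr5a2, Tbx3, Fgf4, Utf1 and Lin28a, had no region of either list in this distance. The median distance of the 21 genes to a lost region was 2247 kb. Genes of LIF signalling, the cytokine pathway that supports these cultures, had no listed region for any of 6 genes (Lifr, Il6st, Jak1, Stat3, Socs3 and Pim1).

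**Figure D4:**
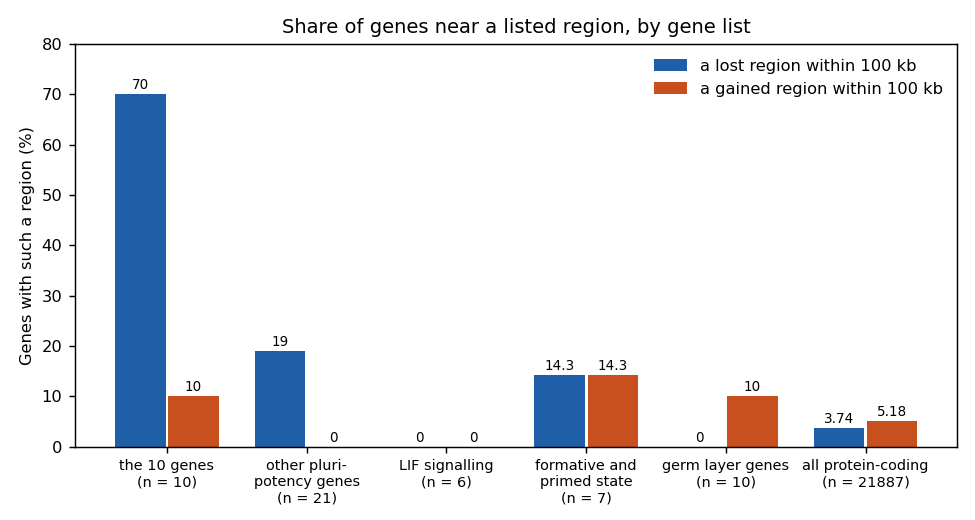
Percentage of genes with a lost (blue) or gained (orange) region within 100 kb, for the 10 described genes, 4 further gene lists and all protein-coding genes, with the number of genes under each pair of bars. The first pair (7 and 1 of 10 genes) reflects genes picked with the lists of regions in view. The 4 further gene lists were also chosen with earlier results of these data known. The other pluripotency genes stand at 19.0% and 0%. Of their 4 genes with a lost region, 2 (Dppa3 and Dppa4) share it with Nanog or Dppa2.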

How the data were processed

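The members and gene lists were chosen with earlier results of these data known. The 2 lists attached to the 4 DMSO and 4 cycloheximide ATAC-seq libraries hold chromosome, start, end and a running name, and these positions are the other kind of value the authors deposited here, in base pairs and with no score. Bowtie2 2.2.4, SAMtools and the builds mm10, mm9 and GRCm38 are named in the submitters' processing notes, with no role. Peak caller, threshold, differential test and the treatment of replicates are not given in the sources used here. Regions on chromosome Y end as far out as 90813309 (gained) and 84721753 (lost), past the length of that chromosome in mm9, so positions were read as GRCm38 (mm10) and are printed 1-based.

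Gene spans came from RefSeq GRCm38.p6, with 21887 protein-coding genes on the chromosomes, and strands and promoter sequences from a RefSeq table of the same build. No region extended beyond the last annotated gene of a chromosome. Distances run from the region's centre to the gene span. All 10 genes and all list genes matched by symbol. All 10 were named, with the genes that hold or neighbour a region and list genes within 100 kb of one. Python 3.11.15, numpy 2.4.6 and pandas 2.3.3 were used. The distance code was tested on simulated data. No significance test was run, because the lists hold no value per library and the genes were chosen on them. Motifs within the regions were not searched, as no genome sequence was used.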

Additional observations from a re-analysis of the deposited data

How the results depend on the processing

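The count of 8 genes with a listed region stayed at 8 with windows of 50 and 200 kb, with distances from the start site where the strand was known, and with any base of a region in place of its centre. The strand was not known for Klf5, Dppa2, Prdm14 and Myc, so the start-site setting could not be applied to them. The 10 lost regions became 9 at 50 kb and 9 with regions within 1 kb counted once, and stayed at 10 at 200 kb. Gained regions rose in number from 1 to 3 at 200 kb, through the regions near Klf4 and Klf5 already described. At that distance Klf5 had regions of both lists. With the first sorted block of each list alone, chosen after seeing the data, 4 genes and 3 lost regions were left, since that block holds fewer regions. The median width of 610 bp became 663 bp with regions within 1 kb joined and 560 bp without Myc, the latter chosen after seeing the data. The background share for gained regions was 5.18%, and 4.02% among genes with a span in the range of the 10. No paired analysis was possible because the lists hold no column for a library, and for the same reason no replicate could be left out. The planned motif search of the regions was not run. Depth cannot be judged from positions.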

Other observations

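Genes of states other than the naive one were examined by the same rule. Of 7 genes of the formative and primed state, 1 had a lost and 1 a gained region within 100 kb. Dnmt3b, a DNA methyltransferase that rises as cells leave the naive state, had a lost region of 221 bp with its centre 54.2 kb upstream. Zic2, a zinc finger factor, had a gained region of 786 bp at 45.3 kb. Fgf5, Otx2, Pou3f1, Sox3 and Tcf7l1 had none. Of 10 germ layer genes, 0 had a lost region and 1 had a gained region, namely Sox17, an endoderm factor, with a region of 1648 bp at 63.0 kb. The other 9, among them T, Gata4, Gata6, Cdx2 and Eomes, had none of either list. These lists are small and were chosen with earlier results of the data known. The shares are descriptions beside the background of 3.74% for lost and 5.18% for gained regions.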
